A study of Mus musculus with 30 samples.

Results

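Frontal cortex taken 6 h after lipopolysaccharide (LPS) was compared with frontal cortex taken 6 h after saline, over all genes. LPS, the outer membrane glycolipid of Gram-negative bacteria, is a standard trigger of innate immunity. The libraries were chosen by the tissue, treatment and time on their labels, which gave 4 LPS libraries (A240, A241, A242 and A243) and 3 saline libraries (A223, A224 and A226), 7 of the 30 libraries of the series. All came from wild-type male C57BL/6J mice of 8 to 12 weeks in a model of Gulf War Illness. Both groups had been given corticosterone (CORT) in drinking water at 200 mg/L, with 0.6% ethanol as its solvent, for 7 days, had been injected on day 8 with 4 mg/kg diisopropyl fluorophosphate (DFP), an irreversible inhibitor of acetylcholinesterase, and had then been given CORT again every other week up to 5 weeks. The LPS group then received 0.5 mg/kg LPS under the skin, and the other group saline. CORT and DFP were thus given to both groups, and the contrast shows the response to LPS in exposed mice, with no unexposed mice compared here.

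LPS given under the skin meets the brain first at its vessels and borders. There, CD14 and the TLR4 complex recognise it and switch on NF-kB and interferon regulatory factors. Endothelial cells then expose selectins and integrin ligands that catch leukocytes, cytokines of the interleukin 6 family act through STAT3 on astrocytes, and type I interferon acts through STAT2 and IRF9 on the interferon-stimulated genes. Corticosterone acts through the glucocorticoid receptor, which raises a well-known set of target genes and opposes NF-kB.

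The 7 libraries held 16826882 to 33034295 counts. Levels are given as CPM, a gene's counts scaled to the total of its library. Cortical layer genes summed to 985 to 1153 CPM in LPS libraries and 1087 to 1275 CPM in saline libraries, and hippocampal neuron genes to 29.5 to 32.6 CPM in LPS libraries and 28.6 to 32.3 CPM in saline libraries. Mitochondrially encoded genes took 11.45% of the counts in LPS A240 and 8.169 to 8.734% in the other LPS libraries, against 8.329 to 9.642% in saline libraries. With these genes removed 355 genes were called higher and 221 lower, and without LPS A240 317 and 127. Whether that share bears on the low values of A240 given below was not tested. Some bordering tissue was uneven between libraries. Choroid plexus genes summed to 470 CPM in LPS A241 and 38.8 to 68.1 CPM in the other LPS libraries, against 1098 CPM in saline A224 and 47.2 and 99.3 CPM in the other saline libraries. Striatal neuron genes summed to 257 CPM in LPS A241 and 506 to 513 CPM in the other LPS libraries, against 971 CPM in saline A224 and 232 and 425 CPM in the other saline libraries. Without LPS A241 and saline A224, 499 genes were called higher after LPS and 377 lower, a setting added after their choroid plexus levels had been seen. Since these are bulk samples, fewer cells of a type and less RNA per cell cannot be told apart. Each cortical library carries its own mouse code, and the p-values measure the spread between these libraries.

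**Figure D1:**
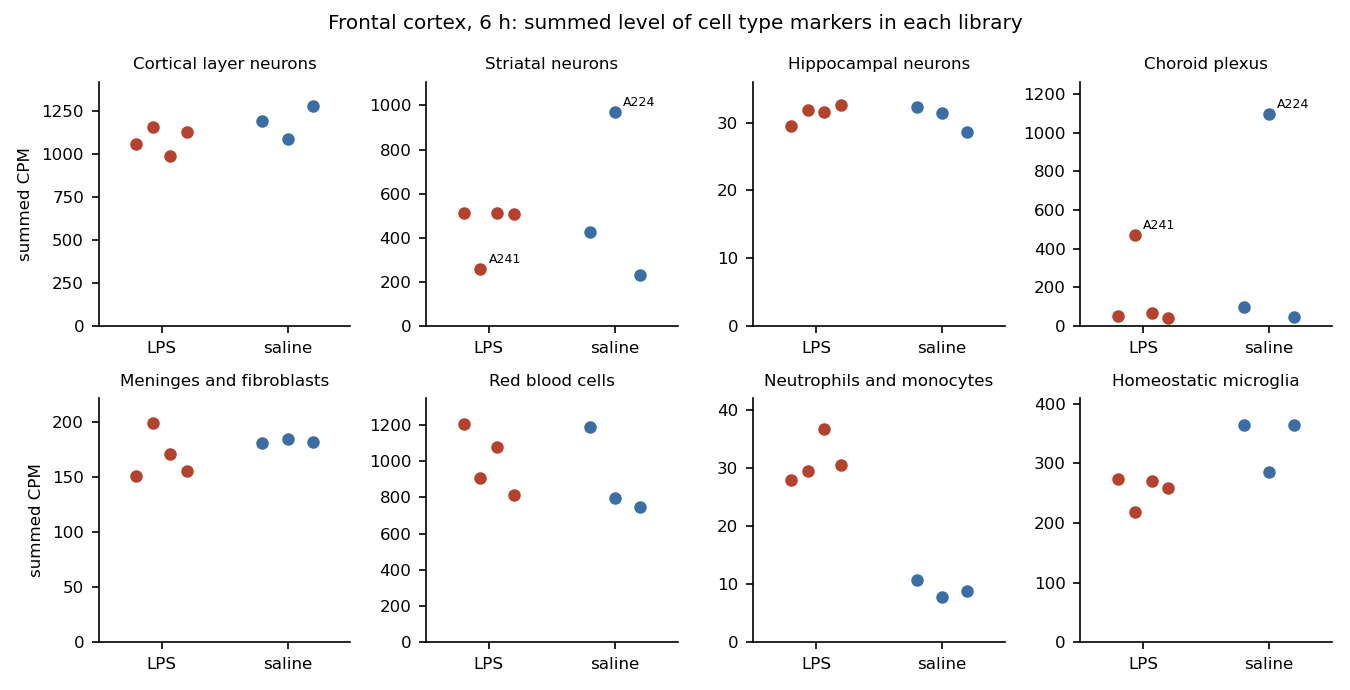
Summed level (CPM) of cell type marker genes in each frontal cortex library, with LPS 6 h and saline side by side; every point is a library. Saline A224 stands at 1098 CPM and LPS A241 at 470 CPM for choroid plexus genes, whereas the neutrophil and monocyte genes separate the groups (28 to 36.8 CPM after LPS, 7.83 to 10.7 CPM after saline).

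Of 17111 genes tested, edgeR's quasi-likelihood test with Benjamini-Hochberg adjustment called 394 higher after LPS (2.30% of genes) and 205 lower (1.20%) at an adjusted p under 0.05, 599 in all (3.50%). A log2 fold change of at least 1 was fitted for 199 of the higher genes (1.16%) and 35 of the lower (0.205%), so most of the large changes were rises. Every LPS library lay above every saline library for 1551 genes (9.06%) and below for 1317 (7.70%). The 10 steepest rises at a mean of at least 1 log2 CPM with groups that did not overlap were Selp, Sele and Ch25h of the endothelial activation list, S100a9 and S100a8 of the neutrophil list, and Lcn2, Bcl3, Chil3, Il1b and Msr1. The 10 steepest falls were Hif3a, Plin4 and Sgk1 of the glucocorticoid-responsive list, Atp10a of the endothelial identity list, and Ptprb, Clec14a, Fam83d, Plekhf1, Mc4r and Rab11fip1, which are in no list. Fam83d fell to 2.38 ± 0.332 CPM after LPS, against 6.34 ± 1.45 CPM after saline (-1.4 ± 0.22, adjusted p = 0.000804), Plekhf1 fell to 2.45 ± 0.397 CPM after LPS, against 6.41 ± 1.55 CPM after saline (-1.37 ± 0.19, adjusted p = 0.000283) and Mc4r, a melanocortin receptor, fell to 1.26 ± 0.233 CPM after LPS, against 3.21 ± 1.13 CPM after saline (-1.33 ± 0.27, adjusted p = 0.00621). Rab11fip1, a gene of recycling endosomes (-1.28 ± 0.29, adjusted p = 0.016), missed the threshold without LPS A242 or A243 or saline A223 or A224 (adjusted p 0.0532 to 0.091). Below, the number after ± on a log2 fold change is its standard error, and after a mean CPM it is the SD over 4 LPS or 3 saline libraries.

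**Figure D2:**
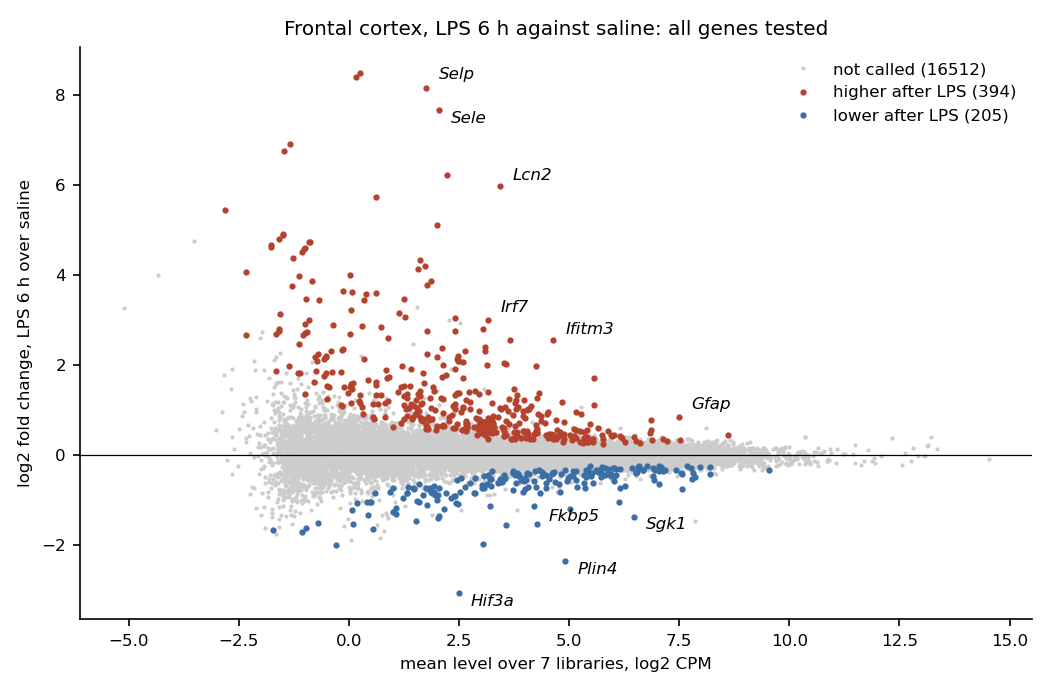
Fitted log2 fold change (LPS 6 h over saline) against mean level (log2 CPM) for the 17111 genes tested; each point is a gene, and colours mark the 394 called higher and the 205 called lower. The rises reach farther than the falls, with Selp at 8.17 and Hif3a at -3.08.

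Promoters are shown for genes that rose from the interferon-inducible lists and the endothelial activation list, since both kinds are textbook targets of known promoter elements. Of 688 list members, 510 had a promoter in a RefSeq table (build GRCm38.p6) that covers 250 bases before and 50 after each start. The interferon-stimulated response element, searched on both strands as GAAA, any 2 bases and GAAA, occurred in at least 1 listed promoter of 3.99% of all 27025 genes. It occurred in 57.7% of 26 interferon-stimulated antiviral genes and 90.9% of 11 interferon-inducible GTPase genes. Among the members that rose it occurred in 60% of 15 and 85.7% of 7. An NF-kB motif, GGG, any 5 bases and CC on either strand, is loose and occurred in 53.5% of all genes, in 81.8% of 11 endothelial activation genes and in 86.7% of 15 genes of NF-kB subunits and feedback. Such shares are not particular to these lists. The motif occurred in 87.5% of 16 circadian clock genes, 100% of 9 sterol synthesis and efflux genes and 46.7% of 15 neuronal and synaptic genes. The core of the glucocorticoid response element, ACANNNTGT on either strand, occurred in 7.9% of all genes and 8.7% of 23 glucocorticoid-responsive genes. A match describes letters in a window, not a bound site. The 250 bases before the start of 5 genes that rose follow, 5′ to 3′ on the gene's strand, with each match in capitals as it reads on that strand. Gbp3 has 2 listed promoters, and the one shown was picked by its number of matches. Gbp3 (chr3:142559794-142560043, plus strand), Isg15 (chr4:156200819-156201068, minus strand) and Ifit1 (chr19:34640639-34640888, plus strand) hold 2, 3 and 2 matches to the interferon element, and those of Gbp3 and Isg15 overlap each other. No match to another of these motifs overlaps the capitals.
Gbp3: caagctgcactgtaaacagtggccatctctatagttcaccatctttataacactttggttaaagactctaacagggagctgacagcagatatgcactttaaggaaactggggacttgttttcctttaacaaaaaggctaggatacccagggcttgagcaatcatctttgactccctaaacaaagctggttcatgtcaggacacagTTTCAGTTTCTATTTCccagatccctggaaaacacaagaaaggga
Isg15: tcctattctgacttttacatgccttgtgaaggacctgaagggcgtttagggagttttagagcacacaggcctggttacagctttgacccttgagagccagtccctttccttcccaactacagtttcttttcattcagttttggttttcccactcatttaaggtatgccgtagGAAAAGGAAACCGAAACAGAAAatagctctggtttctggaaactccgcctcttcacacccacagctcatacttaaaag
Ifit1: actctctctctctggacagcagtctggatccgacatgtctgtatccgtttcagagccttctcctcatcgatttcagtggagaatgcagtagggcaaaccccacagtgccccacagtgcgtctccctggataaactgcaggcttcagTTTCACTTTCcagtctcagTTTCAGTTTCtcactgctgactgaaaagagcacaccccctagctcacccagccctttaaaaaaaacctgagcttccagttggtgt
Sele (chr1:164047984-164048233, plus strand) and Icam1 (chr9:21015690-21015939, plus strand) hold 1 match each to the NF-kB letters. Sites that depart from these letters are not marked, and whether the stretches in capitals are the known elements of these genes was not tested.
Sele: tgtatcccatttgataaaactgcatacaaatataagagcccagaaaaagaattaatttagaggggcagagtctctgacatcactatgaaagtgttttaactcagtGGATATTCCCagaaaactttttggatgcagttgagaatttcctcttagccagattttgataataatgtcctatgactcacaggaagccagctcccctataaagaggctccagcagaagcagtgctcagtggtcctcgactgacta
Icam1: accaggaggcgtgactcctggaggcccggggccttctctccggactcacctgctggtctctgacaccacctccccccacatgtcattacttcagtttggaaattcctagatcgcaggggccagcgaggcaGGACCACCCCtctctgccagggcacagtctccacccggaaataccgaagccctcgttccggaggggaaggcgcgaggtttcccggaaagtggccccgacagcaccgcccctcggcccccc

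Of 17 LPS sensing genes 3 were higher (17.6%) and 1 lower (5.88%). The counts by list, here and below, stand beside 2.30% of all genes higher and 1.20% lower. Cd14, the co-receptor that hands LPS to TLR4, was at 6.17, 10.8, 10.6 and 10.2 CPM in LPS libraries, against 1.16, 2.67 and 1.97 CPM in saline libraries (log2 fold change 2.3 ± 0.24, adjusted p = 1.65e-05). A240 was the lowest LPS library and still stood above every saline library. Tlr2, the receptor of bacterial lipoproteins, was at 4.76, 8.27, 6.24 and 6.35 CPM after LPS and 1.51, 2.37 and 1.13 CPM after saline (2.0 ± 0.27, adjusted p = 0.000205). Tlr4 itself rose to 1.82 ± 0.284 CPM after LPS, against 1.05 ± 0.221 CPM after saline (0.79 ± 0.21, adjusted p = 0.0459), and missed the threshold without LPS A240, A241 or A243 or saline A224 or A226 (adjusted p 0.0801 to 0.255). Tlr7, a receptor of single-stranded RNA, fell by 0.66 ± 0.16 (adjusted p = 0.029) and missed it without LPS A242 or A243 or saline A224 or A226 (adjusted p 0.0745 to 0.119). Ly96, which encodes the TLR4 partner MD-2, was at 0.465 ± 0.251 CPM after LPS and 0.383 ± 0.142 CPM after saline (adjusted p = 0.836), and the adaptor Myd88 at 6.86 ± 0.848 CPM after LPS and 4.83 ± 0.725 CPM after saline (adjusted p = 0.0674). Myd88 passed without LPS A240 (adjusted p = 0.0491) or saline A224 (0.0494).

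Of 13 cytokine genes tested 5 rose. Of those tested 2 had under 10 saline counts and passed the filter on low counts through LPS libraries, and a stricter filter left 3 that rose. Il1b, the chief cytokine of the inflammasome (ENSMUSG00000027398.13, chromosome 2, 129364570 to 129371139, minus strand, GRCm38), was at 2.65, 8.8, 5.4 and 7.44 CPM in LPS libraries, against 0.603, 0.304 and 0.345 CPM in saline libraries (3.86 ± 0.60, adjusted p = 0.00183). A240 was the lowest LPS library. Il1b was among the steepest rises, which were picked without overlap of groups. Its ratio of pooled counts, used here for genes with few saline counts, was 15.1 (95% exact interval 10.3 to 22.9, counting error only), and other ratios are given with theirs in the same way. Tnf, an early macrophage cytokine, was at 0.812, 0.913, 0.704 and 1.28 CPM in LPS libraries, 74 counts in all, and had 2 counts in all saline libraries (ratio 32.2, 8.6 to 271; adjusted p = 0.00328). Il1a rose by 2.14 ± 0.38 (adjusted p = 0.00244). Csf3, the growth factor of neutrophils (adjusted p = 0.00669), missed the threshold without saline A226 (adjusted p = 0.0755), and Csf1, the growth factor of microglia (0.43 ± 0.10, adjusted p = 0.0195), without LPS A241 or A243 or saline A223 or A224 (adjusted p 0.0518 to 0.1). The number called was 3 without LPS A241 or A243. Il6, too rare to be tested, had 8 counts in LPS libraries and 2 in saline libraries, and Il10, Ifnb1, Ifng, Csf2 and Osm were not tested either.

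Of 18 chemokine genes 12 were tested, of which 7 rose and 1 fell. Of those tested 6 had under 10 saline counts and passed the filter on low counts through LPS libraries, so no median is given, and a stricter filter left 4 that rose. Cxcl1, which draws neutrophils, was at 0.379, 1.07, 0.563 and 0.521 CPM in LPS libraries, 50 counts, and had none in saline libraries, at least 14.5-fold higher with 3 counts over the saline group as the floor (adjusted p = 0.000464). Ccl2, which draws monocytes, was at 1.3, 4.88, 1.69 and 2.75 CPM after LPS, 209 counts, against 3 counts after saline (ratio 60.6, 20.4 to 296; adjusted p = 0.00125). A241 was the highest library for both. Without saline A223 the ratio of Ccl2 was 128 (22.8 to 5098), and without saline A226 Cxcl1 was at least 7.71-fold higher. Cxcl10, an interferon-inducible chemokine that draws T cells, was at 0.812, 1.88, 1.69 and 1.71 CPM after LPS, against 0.151, 0.0607 and 0.125 CPM after saline (ratio 13.3, 6.52 to 31.4; adjusted p = 0.000555). Cxcl12, a homeostatic chemokine of vessels and stroma, fell to 31.7 ± 3.06 CPM after LPS, against 53.5 ± 6.69 CPM after saline (-0.75 ± 0.12, adjusted p = 0.00101).

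Of 18 cytokine receptor and antagonist genes 6 rose. Osmr, the oncostatin M receptor subunit, was at 10.9, 14.9, 12.6 and 13.3 CPM in LPS libraries, against 2.61, 2.55 and 2.66 CPM in saline libraries (2.3 ± 0.28, adjusted p = 0.000165). Il4ra rose to 16.4 ± 1.96 CPM after LPS, against 6.89 ± 0.426 CPM after saline (1.25 ± 0.17, adjusted p = 0.00022), and Tnfrsf1a, the main TNF receptor, rose to 22.7 ± 2.72 CPM after LPS, against 10.7 ± 0.211 CPM after saline (1.08 ± 0.13, adjusted p = 4.42e-05). The number that rose was 3 without LPS A242 or saline A223 or A224.

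NF-kB induces its own subunits and inhibitors, and 5 of 18 such genes rose. Bcl3, a nuclear partner of NF-kB subunits, was at 4.33, 6.12, 6.01 and 5.78 CPM after LPS and 0.452, 0.243 and 0.219 CPM after saline (4.21 ± 0.40, adjusted p = 6.92e-06). Nfkb2, the precursor of the noncanonical subunit, rose to 7.68 ± 1.73 CPM after LPS, against 2.95 ± 0.292 CPM after saline (1.38 ± 0.20, adjusted p = 0.00037). Nfkbia, the classical feedback inhibitor, was at 20.6, 27.9, 33.5 and 26.3 CPM after LPS and 24.1, 42 and 25 CPM after saline (-0.15 ± 0.17, adjusted p = 0.638; 95% interval -0.51 to 0.20). Its groups overlapped, with saline A224 the highest library. With a library left out, those called were 2 without LPS A243 or saline A223 or A226 and 3 without LPS A241 or A242 or saline A224.

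Acute phase and STAT3 target genes rose in 8 of 17 cases, with a median log2 fold change of 0.61, against 0.01 over all genes tested. Lcn2, which binds bacterial siderophores (ENSMUSG00000026822.14, chromosome 2, 32384633 to 32388252, minus strand), was at 12.4, 21.3, 23 and 18.3 CPM in LPS libraries, against 0.452, 0.0607 and 0.313 CPM in saline libraries (5.98 ± 0.55, adjusted p = 4.13e-05; ratio 65.3, 42.1 to 107). Lcn2 was among the steepest rises, so the lack of overlap of its groups was required by the choice. Saa3, an acute phase apolipoprotein, had 168 counts in LPS libraries and none in saline libraries, at least 48.7-fold higher (adjusted p = 0.000144), and at least 25.9-fold higher without saline A226. Hp, haptoglobin, had 202 counts after LPS and 14 after saline (ratio 12.5, 7.31 to 23.4; adjusted p = 4.14e-05). Socs3, the feedback inhibitor of STAT3, rose to 19.6 ± 3.13 CPM after LPS, against 3.37 ± 0.586 CPM after saline (2.56 ± 0.32, adjusted p = 0.000393). The C/EBP factors of the acute phase rose as well, Cebpd by 1.33 ± 0.22 (adjusted p = 0.0016) and Cebpb by 0.79 ± 0.12 (adjusted p = 0.000441). Stat3 rose by 0.44 ± 0.12 (adjusted p = 0.0435), and missed the threshold without LPS A241, A242 or A243 or saline A223, A224 or A226 (adjusted p 0.0545 to 0.15).

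**Figure D3:**
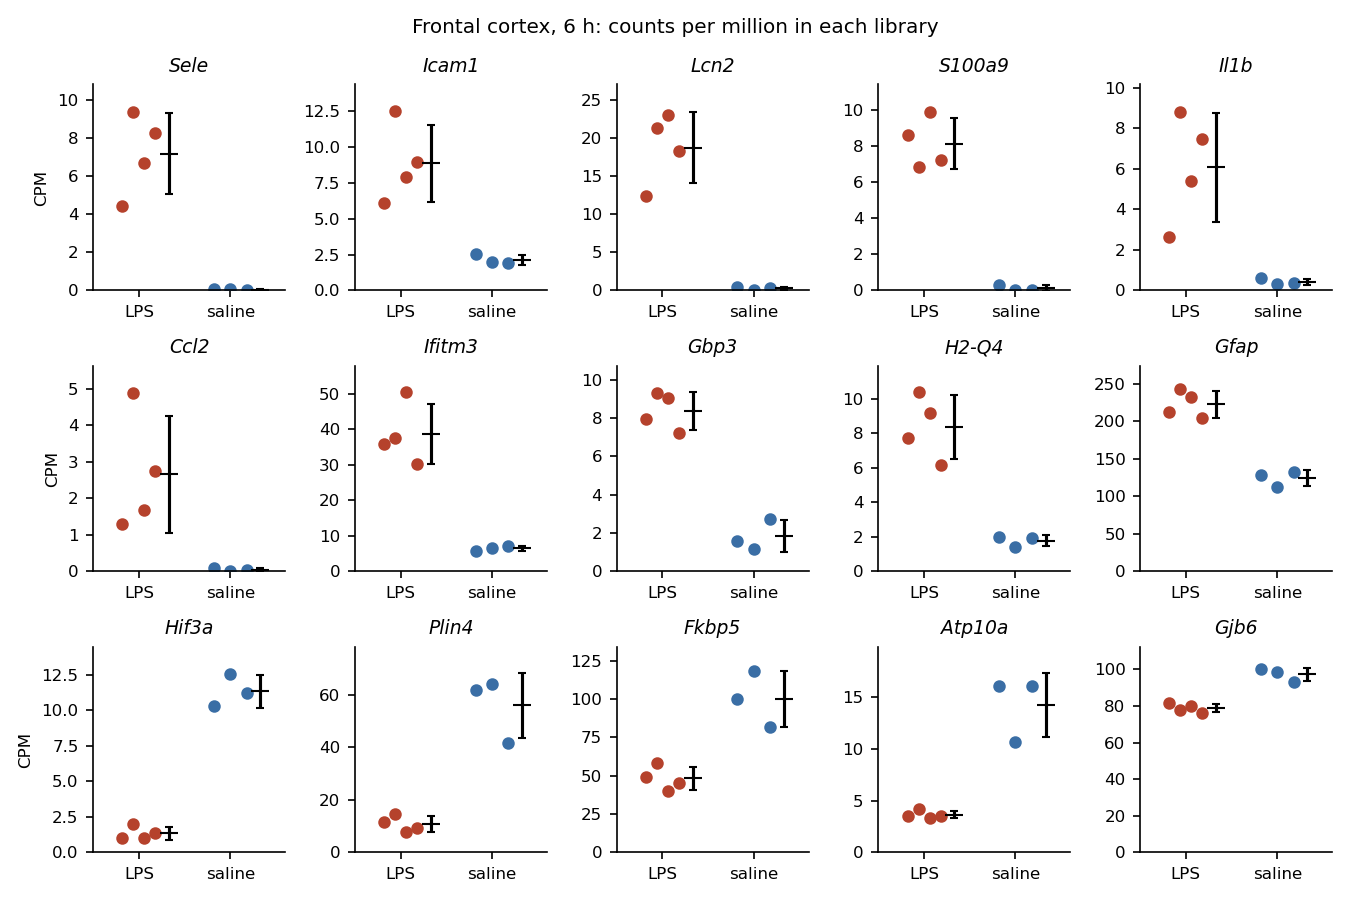
Level (CPM) in each frontal cortex library for 15 genes, with LPS 6 h and saline side by side; points are libraries, and bars give mean and SD (n = 4 and 3). The groups do not overlap in any panel: Sele to Gfap are higher in every LPS library, and Hif3a, Plin4, Fkbp5, Atp10a and Gjb6 are lower in every LPS library (Hif3a 1.34 ± 0.462 CPM after LPS and 11.3 ± 1.14 CPM after saline). For Sele, Lcn2, S100a9, Il1b, Hif3a, Plin4 and Atp10a this was required by the choice of the steepest rises and falls.

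Of 9 STAT and IRF genes 5 rose. Irf7, the amplifier of type I interferon (ENSMUSG00000025498.15, chromosome 7, 141262706 to 141266481, minus strand), was at 14.5, 13.7, 20.1 and 9.24 CPM in LPS libraries, against 1.21, 1.4 and 2.51 CPM in saline libraries (2.99 ± 0.39, adjusted p = 0.000565). A242 was the highest and A243 the lowest LPS library. Irf9, the DNA-binding partner of STAT2, rose to 9.83 ± 0.802 CPM after LPS, against 4.91 ± 0.957 CPM after saline (0.98 ± 0.18, adjusted p = 0.00315). Fewer were called with 1 library less: 2 without saline A226 and 3 without LPS A242 or A243 or saline A223 or A224.

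Of 36 interferon-stimulated antiviral genes 19 rose and none fell, with a median of 1.31. Ifitm3, which blocks viral entry (ENSMUSG00000025492.6, chromosome 7, 141009586 to 141010770, minus strand), was at 36, 37.6, 50.5 and 30.4 CPM in LPS libraries, against 5.73, 6.56 and 7.21 CPM in saline libraries (2.56 ± 0.18, adjusted p = 8.21e-07). Isg15, a ubiquitin-like protein with 3 matches to the interferon element in the promoter above, was at 4.87, 4.24, 7.04 and 4.55 CPM after LPS, against 0.955, 0.85 and 1.35 CPM after saline (2.24 ± 0.37, adjusted p = 0.00183). Ifit1, which binds foreign RNA, was at 6.98, 7.68, 9.11 and 8.95 CPM after LPS, against 2.36, 0.971 and 2.1 CPM after saline (2.13 ± 0.32, adjusted p = 0.00101). In all 3 genes the groups were apart. Zbp1, a nucleic acid sensor, had 138 counts in LPS libraries and 7 in saline libraries (ratio 17.1, 8.1 to 43.4; adjusted p = 0.00036), and Ifi44 had 310 after LPS and 24 after saline (ratio 11.2, 7.41 to 17.8; adjusted p = 8.35e-05). Other members of the class did not pass: the textbook interferon target Mx1 was at 0.263 ± 0.0315 CPM after LPS and 0.218 ± 0.0347 CPM after saline (adjusted p = 0.788), and Rsad2, which encodes viperin, at 2.39 ± 0.649 CPM after LPS and 1.12 ± 0.157 CPM after saline (adjusted p = 0.0782).

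Interferon-inducible GTPases, which attack vacuoles that hold pathogens, rose in 9 of 14 cases, with a median of 2.28. Gbp3 (ENSMUSG00000028268.14, chromosome 3, 142560026 to 142573209, plus strand) was at 7.96, 9.29, 9.06 and 7.2 CPM in LPS libraries, against 1.61, 1.15 and 2.76 CPM in saline libraries (2.09 ± 0.28, adjusted p = 0.000299). Gbp2 (2.81 ± 0.65, adjusted p = 0.0381) and Gbp5 (2.76 ± 0.67, adjusted p = 0.0441) had larger fitted changes with wider errors. Gbp2 missed the threshold without any 1 of the 7 libraries (adjusted p 0.0551 to 0.137) and Gbp5 without any 1 of the 7 libraries (adjusted p 0.0561 to 0.166). The count dropped to 4 without saline A226 and 5 without LPS A242 or A243 or saline A224. These genes have near-identical neighbours, and how the counting shared their reads is not given in the sources used here, so the split between them is uncertain.

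Of 16 MHC class I and immunoproteasome genes 14 rose, with a median of 0.82. Nlrc5, the transactivator of MHC class I genes, had 157 counts after LPS and 18 after saline (ratio 7.58, 4.64 to 13.1; adjusted p = 9.04e-05). H2-Q4, a nonclassical class I gene with close paralogs, was at 7.74, 10.4, 9.2 and 6.16 CPM after LPS, against 2.01, 1.4 and 1.94 CPM after saline (2.2 ± 0.23, adjusted p = 1.86e-05). The classical genes rose less on the log2 scale: H2-K1 was at 47.6, 43.3, 49.6 and 38.9 CPM after LPS, against 24.1, 22.6 and 22.8 CPM after saline (0.95 ± 0.12, adjusted p = 6.97e-05), and H2-D1 rose to 67.7 ± 3.39 CPM after LPS, against 47.1 ± 3.56 CPM after saline (0.52 ± 0.09, adjusted p = 0.00161). The immunoproteasome subunit Psmb8 rose by 1.53 ± 0.22 (adjusted p = 0.00037). For the list, calls fell to 6 without saline A223 or A226, 7 without LPS A242 and 8 without saline A224. Of 16 complement genes 2 rose, C3 and the C5a receptor gene C5ar1 (12.5%, against 2.30% of all genes). C3 had 126 counts after LPS and 16 after saline (ratio 6.85, 4.06 to 12.3, adjusted p = 0.00198). C5ar1 (adjusted p = 0.0138) missed the threshold without saline A224 (adjusted p = 0.0509) or saline A226 (0.106).

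Endothelial activation and adhesion genes rose in 12 of 20 cases, with a median of 0.95. Selp, P-selectin, which starts leukocyte rolling (ENSMUSG00000026580.16, chromosome 1, 164115264 to 164150026, plus strand), was at 3.41, 7.46, 6.52 and 6.11 CPM in LPS libraries, 470 counts, and had 1 count in the 3 saline libraries together (ratio 409, 73 to 16175; adjusted p = 1.7e-06). Without saline A226, which held that count, it was at least 72.4-fold higher. Sele, E-selectin, of the same selectin gene cluster (ENSMUSG00000026582.6, chromosome 1, 164048234 to 164057677, plus strand), was at 4.44, 9.34, 6.67 and 8.24 CPM, 572 counts, against 2 counts after saline (ratio 249, 68.5 to 2058; adjusted p = 1.26e-05), and the ratio was 132 (36.4 to 1094) without saline A226 and 379 (67.7 to 14984) without saline A224. Icam1, a ligand of leukocyte integrins, was at 6.12, 12.5, 7.93 and 8.91 CPM after LPS, against 2.51, 2 and 1.88 CPM after saline (2.06 ± 0.26, adjusted p = 0.000162). For Selp, Sele and Icam1 alike A240 was the lowest and A241 the highest LPS library. Vcam1 rose to 29 ± 4.22 CPM after LPS, against 15.1 ± 2.3 CPM after saline (0.95 ± 0.14, adjusted p = 0.000407). Ch25h, which makes 25-hydroxycholesterol, was at 2.98, 5.69, 7.23 and 4.59 CPM after LPS, against 0.251, 0.304 and 0.219 CPM after saline (4.33 ± 0.53, adjusted p = 0.000179). Of the 3 Adamts genes in the list, which encode secreted matrix metalloproteases, 2 rose, Adamts9 to 6.61 ± 1.03 CPM after LPS, against 1.3 ± 0.198 CPM after saline (2.37 ± 0.32, adjusted p = 0.000302) and Adamts1 to 27.8 ± 4.08 CPM after LPS, against 7.03 ± 0.359 CPM after saline (1.98 ± 0.33, adjusted p = 0.00423), and Adamts4 was at 18.9 ± 2.44 CPM after LPS and 16.3 ± 2.6 CPM after saline (adjusted p = 0.533).

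Genes of the blood-brain barrier and of endothelial identity numbered 30, of which 7 fell, 1 rose and the others were not called, with a median of -0.39. The number that fell was 11 when the 7 libraries were fitted alone. Atp10a, a lipid flippase (ENSMUSG00000025324.8, chromosome 7, 58656166 to 58829420, plus strand), was at 3.57, 4.19, 3.33 and 3.55 CPM in LPS libraries, against 16.1, 10.7 and 16.1 CPM in saline libraries (-1.98 ± 0.23, adjusted p = 6.9e-05). Kdr, the main VEGF receptor, fell to 9.04 ± 0.374 CPM after LPS, against 13.8 ± 1.28 CPM after saline (-0.61 ± 0.12, adjusted p = 0.00631). Mfsd2a, the lipid transporter that holds back transcytosis, was at 21.3, 21.7, 21.1 and 20.3 CPM after LPS, against 33.2, 36.7 and 26.2 CPM after saline (-0.6 ± 0.13, adjusted p = 0.00909), and missed the threshold without saline A223 (adjusted p = 0.0536) or saline A224 (0.0666). Sox17, an endothelial transcription factor, fell by 0.82 ± 0.17 (adjusted p = 0.00672) and missed it without saline A223 (adjusted p = 0.0651). Outside the list, Clec14a, an endothelial lectin, fell to 1.66 ± 0.447 CPM after LPS, against 4.54 ± 0.729 CPM after saline (-1.47 ± 0.25, adjusted p = 0.0017), and Ptprb, an endothelial phosphatase, fell by 1.54 ± 0.38 (adjusted p = 0.0456) but missed the threshold without any 1 of the 7 libraries (adjusted p 0.0535 to 0.211). Pan-endothelial genes did not pass: Pecam1 was at 22.2 ± 2.88 CPM after LPS and 21.7 ± 0.963 CPM after saline (adjusted p = 0.898) and Cdh5 at 15.5 ± 1.74 CPM after LPS and 13.6 ± 0.993 CPM after saline (adjusted p = 0.61). The tight junction gene Cldn5 was at 33.1 ± 6.22 CPM after LPS and 43.6 ± 5.38 CPM after saline (adjusted p = 0.325), and the efflux pump gene Abcb1a at 19 ± 2.93 CPM after LPS and 31.3 ± 3.6 CPM after saline (adjusted p = 0.0543). The count of members lower was 3 without saline A223 and 4 without saline A226. Foxf2, the member that rose (adjusted p = 0.0435), missed the threshold without LPS A240, A242 or A243 or saline A223, A224 or A226 (adjusted p 0.068 to 0.136).

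Of 18 neutrophil and monocyte genes 12 were tested and 8 of these rose. Of those tested 8 had under 10 saline counts and passed the filter on low counts through LPS libraries, so no median is given, and a stricter filter left 3 that rose. S100a9, a calprotectin subunit abundant in neutrophils (ENSMUSG00000056071.12, chromosome 3, 90692632 to 90695721, minus strand), was at 8.61, 6.82, 9.86 and 7.2 CPM in LPS libraries, against 0.302, 0 and 0.0313 CPM in saline libraries (6.22 ± 0.48, adjusted p = 9.4e-07), which is 648 counts after LPS and 7 after saline (ratio 80.5, 38.8 to 201). Most of the saline counts were in A223, and without it the ratio was 398 (71.2 to 15755); without saline A226 it was 49.9 (22.8 to 137). S100a8, the other subunit, had 545 counts after LPS and 13 after saline (ratio 36.5, 21.1 to 68.9; adjusted p = 4.61e-07), Retnlg 74 after LPS and 2 after saline (ratio 32.2, 8.6 to 271; adjusted p = 0.00217), and the chemokine receptor gene Cxcr2 57 after LPS and 2 after saline (ratio 24.8, 6.55 to 210; adjusted p = 0.000567). Without saline A223 the ratio of S100a8 was 55.8 (25.5 to 153), and without saline A226 Cxcr2 was at least 8.78-fold higher. Ly6g, Camp, Elane, Mpo, Ccr2 and Trem1 were too rare to be tested. The whole list of 18 genes summed to 28 to 36.8 CPM in LPS libraries and 7.83 to 10.7 CPM in saline libraries. Red blood cell genes, which follow the blood left in the tissue, summed to 810 to 1202 CPM in LPS libraries and 744 to 1185 CPM in saline libraries, and their part in these rises was not tested. Of 10 lymphocyte genes 1 could be tested, and it was not called.

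Of 28 glucocorticoid-responsive genes 10 fell and none rose, with a median of -0.46. Hif3a, an inhibitory hypoxia factor (ENSMUSG00000004328.15, chromosome 7, 17031507 to 17062427, minus strand), was at 1.03, 1.99, 0.986 and 1.37 CPM in LPS libraries, against 10.3, 12.6 and 11.2 CPM in saline libraries (-3.08 ± 0.23, adjusted p = 4.61e-07). Plin4, which coats lipid droplets (ENSMUSG00000002831.13, chromosome 17, 56100591 to 56109803, minus strand), was at 11.5, 14.7, 7.75 and 9.28 CPM after LPS, against 61.9, 63.9 and 41.7 CPM after saline (-2.37 ± 0.24, adjusted p = 5.42e-05). Fkbp5, the co-chaperone that lowers the receptor's affinity for hormone (ENSMUSG00000024222.16, chromosome 17, 28399094 to 28517527, minus strand), was at 49.4, 58.2, 39.9 and 45.4 CPM after LPS, against 100, 118 and 81.7 CPM after saline (-1.05 ± 0.14, adjusted p = 0.000209). In all 3 genes every LPS library stood below every saline library, which for Hif3a and Plin4 was required by the choice of the steepest falls. Sgk1, a steroid-induced kinase, was at 47.2, 53.2, 59.3 and 49.6 CPM after LPS, against 85.3, 200 and 125 CPM after saline (-1.38 ± 0.22, adjusted p = 0.00273), with A224 the highest of widely spread saline libraries. Zbtb16, a zinc finger repressor, fell by 1.2 ± 0.17 (adjusted p = 0.000555), Arrdc2 by 1.14 ± 0.18 (adjusted p = 0.00125), Tsc22d3, which encodes the anti-inflammatory mediator GILZ, by 0.58 ± 0.10 (adjusted p = 0.00149), Klf9 by 0.53 ± 0.08 (adjusted p = 0.00083) and Klf15 by 0.47 ± 0.08 (adjusted p = 0.00119). Ucp2, the remaining call, fell by 0.74 ± 0.18 (adjusted p = 0.0313) and missed the threshold without LPS A240, A241, A242 or A243 or saline A223 or A224 (adjusted p 0.0516 to 0.131). Other members did not pass: Dusp1 was at 42 ± 4.46 CPM after LPS and 40.6 ± 5.96 CPM after saline (adjusted p = 0.893), Pdk4 at 14.3 ± 1.18 CPM after LPS and 15.9 ± 4.8 CPM after saline (adjusted p = 0.621) and Per1 at 69.5 ± 10.5 CPM after LPS and 95.3 ± 7.4 CPM after saline (adjusted p = 0.18). The receptor gene, Nr3c1, was at 105 ± 10 CPM after LPS and 97.9 ± 14 CPM after saline (0.1 ± 0.11, adjusted p = 0.627). Of 18 circadian clock genes 1 fell, Cry2 (5.56%, against 1.20% of all genes). Cry2 (-0.3 ± 0.08, adjusted p = 0.0476) missed the threshold without LPS A240 or A242 or saline A223, A224 or A226 (adjusted p 0.098 to 0.17).

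**Figure D4:**
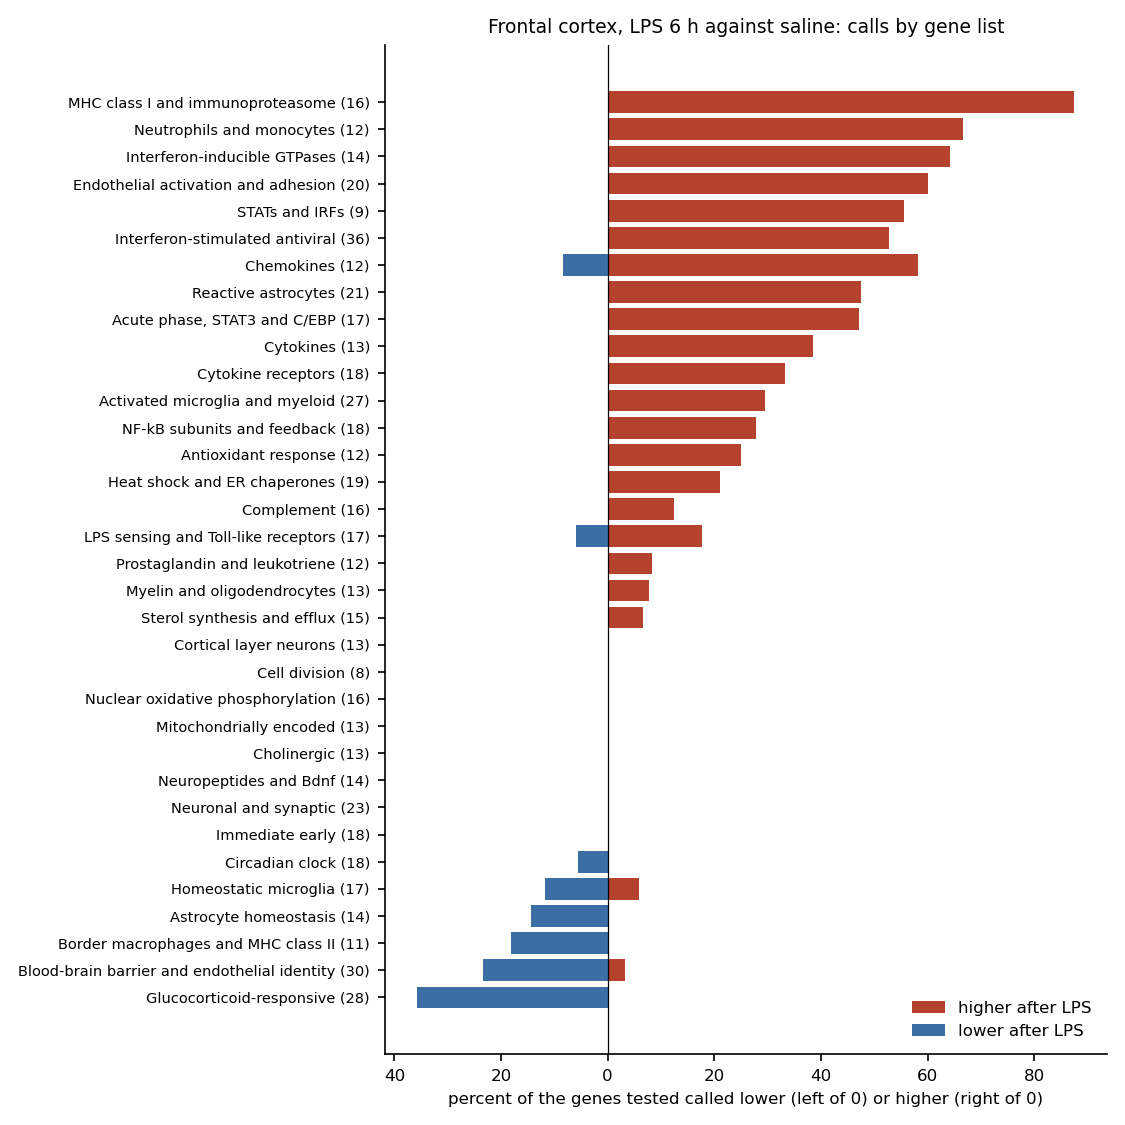
Share of the tested genes called higher or lower in LPS 6 h against saline frontal cortex, by list, for the process lists and some of the cell type marker lists. Most of the marker lists left out had no call. MHC class I and immunoproteasome genes reach 87.5% higher and glucocorticoid-responsive genes 35.7% lower, against 2.30% and 1.20% of all genes.

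Of 27 activated microglia and myeloid genes 8 rose (29.6%, against 2.30% of all genes). Ncf4, a subunit of the phagocyte oxidase, rose to 1.5 ± 0.261 CPM after LPS, against 0.502 ± 0.0822 CPM after saline (1.6 ± 0.30, adjusted p = 0.00305). Gpr84, a fatty acid receptor of activated microglia (3.04 ± 0.59, adjusted p = 0.0114), missed the threshold without saline A226 (adjusted p = 0.0988), and Msr1, a scavenger receptor (3.77 ± 0.78, adjusted p = 0.0183), without saline A223, A224 or A226 (adjusted p 0.0509 to 0.138). Calls numbered 3 without saline A226. Of 17 homeostatic microglia genes 2 fell and 1 rose (11.8% and 5.88%), with a median of -0.38, and 5 fell in the fit of all 30 libraries. Tgfbr1, a receptor for the cytokine that maintains microglial identity, was at 14.2, 11.8, 12.4 and 13.8 CPM in LPS libraries, against 23.8, 17.3 and 23.4 CPM in saline libraries (-0.72 ± 0.13, adjusted p = 0.00273), and Mertk, a receptor for apoptotic cells, fell to 38.1 ± 3.91 CPM after LPS, against 58.4 ± 6.24 CPM after saline (-0.62 ± 0.10, adjusted p = 0.00158). P2ry6 (0.57 ± 0.15, adjusted p = 0.0444), the member that rose, missed the threshold without LPS A241, A242 or A243 or saline A223, A224 or A226 (adjusted p 0.0662 to 0.194). P2ry12, the purinergic receptor of resting microglia, was at 9.53, 4.46, 7.65 and 7.34 CPM after LPS, against 16.3, 7.89 and 15.4 CPM after saline (-0.88 ± 0.58, adjusted p = 0.414), and its groups overlapped. Tmem119 was at 10.9 ± 2.72 CPM after LPS and 15 ± 2.12 CPM after saline (adjusted p = 0.283) and Cx3cr1, the fractalkine receptor, at 27.2 ± 3.82 CPM after LPS and 26.1 ± 7.61 CPM after saline (adjusted p = 0.893). Of 11 border macrophage and MHC class II genes 2 fell, Cd163 and Lyve1 (18.2%, against 1.20% of all genes). Cd163, the haemoglobin scavenger receptor, was at 1.34 ± 0.173 CPM after LPS and 3.12 ± 0.938 CPM after saline (-1.19 ± 0.23, adjusted p = 0.00425). Lyve1 (-1.08 ± 0.26, adjusted p = 0.0218) missed the threshold without LPS A240 or A243 or saline A226 (adjusted p 0.0556 to 0.239).

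Reactive astrocyte genes rose in 10 of 21 cases, with a median of 0.84. Gfap, the astrocyte intermediate filament (ENSMUSG00000020932.14, chromosome 11, 102887336 to 102900912, minus strand), rose (0.84 ± 0.15, adjusted p = 0.00364), with 204 CPM in the lowest LPS library, against 132 CPM in the highest saline library. Timp1, a protease inhibitor (2.36 ± 0.52, adjusted p = 0.0147), missed the threshold without saline A223 (adjusted p = 0.066) or saline A226 (0.104), and Cd44, a hyaluronan receptor (1.35 ± 0.29, adjusted p = 0.0114), without saline A223 (adjusted p = 0.0737) or saline A226 (0.0874). The number called fell to 5 without saline A223 or A226. Of 14 astrocyte homeostasis genes 2 fell (14.3%, against 1.20% of all genes). Gjb6, connexin 30 (ENSMUSG00000040055.8, chromosome 14, 57123303 to 57133611, minus strand), was at 81.4, 78, 79.8 and 76.1 CPM after LPS and 100, 98.8 and 92.9 CPM after saline (-0.3 ± 0.06, adjusted p = 0.00463), a small difference between tight groups. Fgfr3 fell by 0.47 ± 0.10 (adjusted p = 0.012) and missed the threshold without saline A223 (adjusted p = 0.0834). The water channel gene Aqp4 was at 65.3 ± 2.63 CPM after LPS and 57.2 ± 8.47 CPM after saline (adjusted p = 0.319).

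None of 23 neuronal and synaptic, 18 immediate early, 14 neuropeptide, 13 cortical layer or 10 oligodendrocyte precursor genes was called by edgeR in either direction, against 3.50% of all genes. At that share lists this short may hold no call. At an unadjusted p under 0.05 stood 4, 2, 1 and 1 of them and 6 of the 10 oligodendrocyte precursor genes, against 19.0% of all genes. DESeq2 called 1, an oligodendrocyte precursor gene. None was called by edgeR among 13 mitochondrially encoded and 16 nuclear genes of oxidative phosphorylation (0 and 3 at an unadjusted p under 0.05) or among 13 cholinergic genes (2 at that level), and DESeq2 called 0 of these. Ache, which encodes the enzyme that DFP blocks, was at 45.5, 39.8, 48.3 and 42.4 CPM in LPS libraries, against 43.2, 55.6 and 44.4 CPM in saline libraries (-0.11 ± 0.13, adjusted p = 0.661; 95% interval -0.39 to 0.16). Of 19 heat shock and endoplasmic reticulum chaperone genes 4 rose (21.1%, against 2.30% of all genes). Atf3, a stress-induced transcription factor, was at 1.46, 2.36, 3.1 and 3.6 CPM after LPS, against 0.352, 0.304 and 0.407 CPM after saline (2.85 ± 0.43, adjusted p = 0.000555). Xbp1, the transcription factor of the unfolded protein response, was at 133, 130, 161 and 139 CPM after LPS, against 81.4, 83.6 and 81.8 CPM after saline (0.78 ± 0.12, adjusted p = 0.00101). This count was 2 without LPS A242 or saline A223 or A226.

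Whether the cortex responded differently from the hippocampus was tested as an interaction over all 30 libraries. The hippocampal groups, 4 LPS and 3 saline libraries at 6 h, had the same exposure, and 6 mice gave both tissues. Of 17650 genes edgeR called 0 different, with 1031 at an unadjusted p under 0.05 (5.84%), and DESeq2 called 0 as well. In this fit 733 genes rose and 538 fell in the cortex (4.15% and 3.05%), and 442 rose in the hippocampus (2.50%), where 1.37% of genes fell. Of the rises 325 were shared, 44.3% of those in cortex and 73.5% of those in hippocampus. Of the falls 137 were shared, 25.5% and 56.8%. No gene was called in opposite directions. Selp changed by 8.17 and 7.29 on the log2 scale in cortex and hippocampus, Ifitm3 by 2.55 and 2.47, Icam1 by 2.06 and 2.08 and Hif3a by -3.09 and -3.02. Larger gaps, none of which passed, were fitted for Cebpd (1.33 and 0.29; difference 1.04 ± 0.25, unadjusted p = 0.000343, adjusted p = 0.689), Adamts9 (2.36 and 0.85; unadjusted p = 0.0029, adjusted p = 0.762) and Kdr (-0.61 and -0.05; unadjusted p = 0.00214, adjusted p = 0.762). Gaps in the other direction, which did not pass either, were fitted for Il1rn (3.46 ± 0.76 in cortex and 6.75 ± 1.25 in hippocampus), Mx1 (0.25 ± 0.48 and 2.62 ± 0.66) and Il1b (3.85 ± 0.56 and 5.68 ± 0.74). Adamts9 was the 1 gene called different (adjusted p = 0.0402) when the 14 libraries at 6 h were fitted alone.

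**Figure D5:**
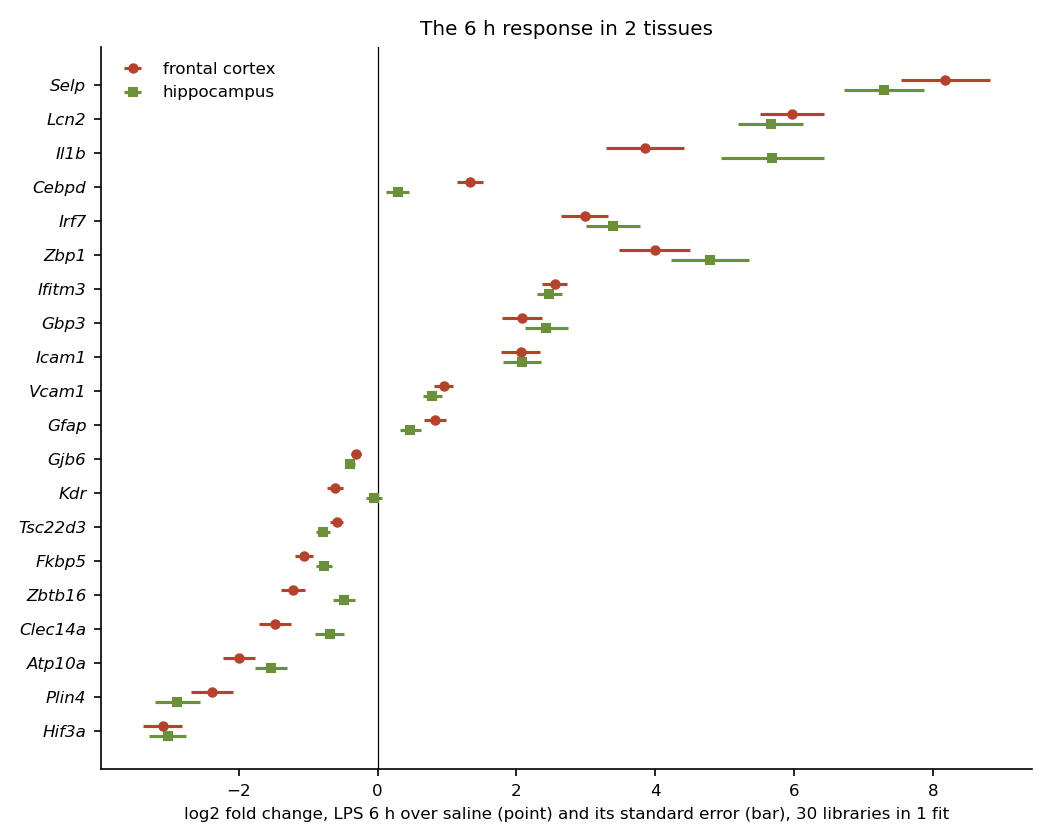
Fitted log2 fold change (LPS 6 h over saline) with its standard error in frontal cortex and hippocampus for selected genes, from all 30 libraries in 1 fit. Selp (8.17 and 7.29) and Hif3a (-3.09 and -3.02) are plotted in cortex and hippocampus, and Cebpd (1.33 and 0.29) and Kdr (-0.61 and -0.05) lie apart without passing the test of the difference.

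LPS 12 h cortex (4 libraries) was compared with LPS 6 h cortex, so the 6 h libraries enter both comparisons. Saline cortex was taken at 6 h only. A change in the response to LPS therefore cannot be told apart from a change with time alone. At 12 h 105 genes were higher than at 6 h and 105 lower (0.614% each). Selp was at 2.65 ± 1.08 CPM at 12 h, lower than at 6 h by 1.14 (adjusted p = 0.0484). Hp was lower by 1.38 (adjusted p = 0.0231), Chil3, a chitinase-like gene of myeloid cells, by 1.14 (adjusted p = 0.0146), Cebpd by 0.90 (adjusted p = 0.0283) and Cebpb by 0.65 (adjusted p = 0.00492). Among genes already lower at 6 h, Plin4 was lower again by 2.59 (adjusted p = 0.000507), Mfsd2a by 1.25 (adjusted p = 4.44e-05) and Gjb6 by 0.52 (adjusted p = 6.02e-05). Mfsd2a was the 1 member of its barrier list, which holds 30 genes, called lower at 12 h, and 2 were called higher. At an unadjusted p under 0.05 by edgeR 10 members of that list were higher at 12 h and 1 was lower. Of 36 interferon-stimulated antiviral genes 5 were higher at 12 h than at 6 h by edgeR (19 at an unadjusted p under 0.05, against 6.3% of all genes). Of 14 interferon-inducible GTPase genes 0 were (2 unadjusted), and of 9 STAT and IRF genes 0 were (3 unadjusted). Mx1 was higher by 2.23 (adjusted p = 0.000288), Rsad2 by 1.33 (adjusted p = 0.0118), Ifit3 by 1.27 (adjusted p = 0.0146) and the chemokine gene Cxcl10 by 1.63 (adjusted p = 0.00792). Of 17 homeostatic microglia genes 5 were higher at 12 h, and of 27 activated microglia and myeloid genes 1 was higher and 2 were lower. At an unadjusted p under 0.05 by edgeR 15 homeostatic genes were higher and 1 lower. At the same level 15 activated microglia and myeloid genes were higher and 4 lower. Tmem119 was higher by 1.22 (adjusted p = 0.0118), Cx3cr1 by 0.77 (adjusted p = 0.0138) and Tgfbr1, lower at 6 h, by 0.58 (adjusted p = 0.0229). Clec14a, also lower at 6 h, was higher at 12 h by 1.17 (adjusted p = 0.0208). The difference between times did not pass for Hif3a (adjusted p = 0.398), Fkbp5 (0.125), Atp10a (0.942) or Lcn2 (0.0935).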

How the data were processed

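The data are RNA-seq counts of poly(A) RNA from frontal cortex and hippocampus in 30 libraries, per the labels' protocols made with a stranded kit and sequenced as paired reads of 150 bp. The deposited table holds read counts per gene made by the authors. Trim Galore 0.4.1, FastQC, STAR 2.6.0a, DESeq2 and the build GRCm38/mm10 are named in the submitters' processing notes, and which program counted reads, and with which strand setting, is not given in the sources used here, so overlapping and near-identical genes may share reads. Samples were grouped by the labels, and 0 columns were left unmapped. Of 48820 gene IDs 48144 were paired with a symbol, and unnamed IDs took at most 0.261% of a library.

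Genes with enough counts (edgeR's filterByExpr, minimum 10 in a library and 15 in all) were fitted with edgeR 4.0.16 (R 4.3.3, TMM scaling, quasi-likelihood test) over the 15 cortical libraries, whose groups share 1 estimate of the spread. The tissue difference was fitted over all 30 libraries and the 12 h comparison in the cortical fit. Alternatives were DESeq2 1.42.0, limma-voom (limma 3.58.1), other scalings and filters, fewer or more libraries, and each library left out. The scripts were tested on simulated data. Genes with at most 30 pooled saline counts have a ratio of pooled counts per library size with an exact 95% interval. No pair of replicates agreed within sampling noise (chi-square per gene at least 5.60).

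The genes named were the 10 steepest rises and falls at a mean of at least 1 log2 CPM without overlap of groups, 4 or fewer members per list (by size among called ones, then by p) and a fixed set of inflammatory, glial and vascular genes. Other genes named were chosen after their values were seen, and some genes are not reported here. Lists and genes were chosen with earlier results of these data known. The same mouse code stands on cortical and hippocampal libraries of 14 mice, so the numbers pair the tissues. At 6 h the deviations of such pairs correlated at -0.062 to 0.293 across 13592 genes, which are not independent replicates.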

Additional observations from a re-analysis of the deposited data

Results flagged for a closer look

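Of 212 values checked in the 4 LPS libraries, 13 had 1 library set apart from the other 3 by a gap over Dixon's critical value for 4 values. Chance sets about 1 in 20 groups apart in this way. The causes were not tested.

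Markers of bordering tissue made up 3 of the 13. The choroid plexus transcript Ttr, transthyretin, made up 0.0419% of the counts in LPS A241, and 0.003189, 0.004978 and 0.002635% in A240, A242 and A243, against 0.007718, 0.09616 and 0.003481% in saline libraries. Choroid plexus genes summed to 49.8, 470, 68.1 and 38.8 CPM in LPS libraries and 99.3, 1098 and 47.2 CPM in saline libraries, with A241 high among LPS libraries. Striatal neuron genes summed to 513, 257, 510 and 506 CPM in LPS libraries and 425, 971 and 232 CPM in saline libraries, with A241 low among LPS libraries.

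LPS A240 was apart and low for Cd14 (6.17 CPM) and Nlrc5 (1.35, 2.2, 2.16 and 2.13 CPM), and apart for Hmox1, heme oxygenase (6.17, 7.57, 7.7 and 7.48 CPM in LPS libraries and 5.38, 5.1 and 4.7 CPM in saline libraries). LPS A242 was apart and high for Ccl12, a monocyte chemokine (1.89, 1.72, 3.1 and 1.89 CPM), for Zbp1 (1.35, 1.45, 2.63 and 1.42 CPM), for the neutrophil gene Retnlg (0.65, 0.698, 1.55 and 0.758 CPM) and for Tmem204, an endothelial membrane protein gene (3.52, 3.44, 4.41 and 3.51 CPM). LPS A241 was apart for Ifi44 (3.68, 4.83, 3.57 and 3.6 CPM). Chemokine genes summed to 695, 698, 708 and 787 CPM in LPS libraries and 736, 739 and 746 CPM in saline libraries, with A243 apart. Prostaglandin and leukotriene genes summed to 1460, 1476, 1687 and 1475 CPM in LPS libraries and 1444, 1566 and 1318 CPM in saline libraries, with A242 apart.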

How the results depend on the processing

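By edgeR, 394 genes were called higher and 205 lower. Fitting all 30 libraries together gave 733 and 538, limma-voom with quality weights 685 and 460, DESeq2 500 and 337, and a log2 fold change of at least 1 left 199 and 35. The causes of these differences were not tested. Without saline A224 and LPS A241, chosen after seeing the data, 499 were higher and 377 lower. Leaving out 1 library at a time gave 211 to 455 higher, the fewest without saline A226, and 112 to 409 lower, the fewest without saline A223 and the most without LPS A241. Over all lists 134 members rose and 26 fell (80 to 129 and 20 to 29 without 1 library). Fitting the 7 libraries alone gave 14 GTPase, 3 NF-kB, 7 chaperone and 1 antioxidant genes higher, the stricter filter 3 cytokine genes, no filter 5 GTPase genes, and limma-voom 4 complement genes. The other scalings and filters kept the counts of genes higher and lower within 1.5 times, and the other scalings moved the median log2 fold change of all genes by at most 0.017. No gene was called different between tissues, and the replicate block, which pairs the tissues of a mouse, gave 0 as a fixed and 0 as a random effect, and leaving out 1 library 0 in every case. The 14 libraries at 6 h alone gave 1. Of 148 chosen or printed genes that were called, 92 passed under every alternative that gave a value, and 56 missed the threshold under at least 1. None of the 252 tested changed direction with a call in the main fit or the alternative. Changes of direction without a call in either were not counted. Tnf, Ccl2, S100a9 and Selp had under 10 pooled saline counts, so depth limits their folds. Under 10 saline counts were also held by 2 tested genes each of the interferon-stimulated antiviral and endothelial activation lists. The same was true of 1 tested gene each of the cytokine receptor, acute phase, border macrophage and reactive astrocyte lists.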

Other observations

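Genes outside the lists, taken from the 10 with the smallest p in each direction and so chosen after their values were seen, had the following values. Ly6a, the Sca-1 antigen found on brain endothelium, was at 65.6, 58.9, 80.6 and 63 CPM in LPS libraries, against 20.6, 22.9 and 18.8 CPM in saline libraries (1.7 ± 0.14, adjusted p = 1.77e-06, edgeR's quasi-likelihood test with Benjamini-Hochberg adjustment). Igfbp7, a vascular growth factor binding protein, was at 35, 36.4, 42.3 and 36.6 CPM after LPS and 19.2, 14.4 and 16.1 CPM after saline (1.18 ± 0.11, adjusted p = 6.22e-06). Of genes active in leukocytes, Ctsc, which activates granule proteases, rose to 18.4 ± 1.64 CPM after LPS, against 8.04 ± 0.971 CPM after saline (1.21 ± 0.12, adjusted p = 1.14e-05), Lcp1, the leukocyte plastin, rose to 15.6 ± 0.79 CPM after LPS, against 7.82 ± 0.982 CPM after saline (0.98 ± 0.10, adjusted p = 1.65e-05), and the kinase Jak3 rose by 1.07 ± 0.13 (adjusted p = 8.85e-05). Tagln2, Rasl10a, Grrp1 and Ier3 rose by 1.02, 0.90, 2.39 and 1.0. Among the falls, Adipor2, an adiponectin receptor, was at 48.5, 65.7, 51.3 and 57.5 CPM after LPS, against 91.2, 99.2 and 89 CPM after saline (-0.74 ± 0.08, adjusted p = 3.19e-05). Pnpla2, the lipase that starts triglyceride breakdown, fell to 22 ± 0.847 CPM after LPS, against 34.5 ± 4.05 CPM after saline (-0.65 ± 0.09, adjusted p = 0.000173), and Slc38a2, an amino acid transporter, was at 93.5, 118, 103 and 111 CPM after LPS, against 159, 172 and 171 CPM after saline (-0.65 ± 0.09, adjusted p = 0.000311). Tmem204, Golm1, Sgms1, Rin2, Ankrd13a, Tns1 and Wipf3 fell by 0.46 to 1.1. These genes were picked among called ones whose groups did not overlap, so their separation was fixed by the choice.

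Several lists gave 3 or fewer calls. Of all genes 2.30% were called higher. The share was 25% for antioxidant, 8.33% for prostaglandin and leukotriene, 6.67% for sterol, 7.69% for myelin and 7.14% for meningeal genes. Antioxidant genes rose in 3 of 12 cases (0 without LPS A243 or saline A223 or A226 and 1 without LPS A242 or saline A224). Prostaglandin and leukotriene genes rose in 1 of 12, Ptges, the inducible prostaglandin E synthase (0.76 ± 0.17, adjusted p = 0.0156), which missed the threshold without saline A223 (adjusted p = 0.0645) or saline A226 (0.0851). Sterol genes rose in 1 of 15, Idi1 (0.35 ± 0.09, adjusted p = 0.0387), which missed it without LPS A240, A242 or A243 or saline A223, A224 or A226 (adjusted p 0.0549 to 0.157). Myelin and oligodendrocyte genes rose in 1 of 13, Trf, transferrin (0.68 ± 0.15, adjusted p = 0.0145), which missed it without LPS A242 or saline A223 or A224 (adjusted p 0.0521 to 0.0768). Meningeal and fibroblast genes rose in 1 of 14, Mgp, matrix Gla protein (0.78 ± 0.18, adjusted p = 0.0203), which missed it without LPS A242 or saline A223 or A224 (adjusted p 0.0703 to 0.112). None of 9 mural cell genes and none of 8 cell division genes was called by edgeR or DESeq2, where edgeR called 3.50% of all genes in either direction. At an unadjusted p under 0.05 stood 1 and 1, against 19.0% of all genes.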
